A study of Mus musculus with 16 samples.

Results

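The genes described here are 50 genes of mitosis and chromosome segregation, taken by symbol and read on Illumina bead arrays of mouse small intestine. Their list was chosen with earlier results of these data known. The Hnf4aKO group held 8 mice that carried VillinCreERT2, in which the epithelial villin promoter drives a Cre recombinase that tamoxifen switches on, and Hnf4a alleles flanked by loxP sites (Hnf4afl/fl). Hnf4a encodes a nuclear receptor transcription factor of that epithelium. The Hnf4aWT group held 8 mice without the Cre, which stand as Hnf4afl/fl in the growth protocol but as Hnf4a+/+ in the genotype label, a conflict that was not resolved. All 16 mice received 1 mg of tamoxifen by gavage on each of 5 days, 14 Gy of whole-body gamma irradiation 3 weeks later, and were killed 96 hours after that. There was thus no unirradiated mouse, Cre status went with genotype, and the RNA came from intestinal tissue with all its cell types, in which fewer dividing cells and less RNA per dividing cell cannot be told apart.

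In a dividing cell, cyclin-dependent kinase 1 bound to cyclin B drives entry into mitosis, and the spindle checkpoint holds the cell until every chromosome is attached to the spindle. The anaphase-promoting complex then marks securin and cyclin B for destruction, and the chromosomes part. In the epithelium of the small intestine, division is confined to the crypts, whose cells are lost after high doses of radiation and regrow over the following days.

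Of the 50 genes, 42 had a probe under their current or an older symbol. The other 8 (Aurkb, Cenpf, Ckap2, Kif20a, Mki67, Ncapg, Racgap1 and Smc4) were not analysed here. A probe was tested if its signal exceeded the negative control beads (detection p under 0.05) on at least 6 of the 16 arrays, and 8 more genes fell short of this. Ccnb2, Pttg1, Bub1, Cenpe, Nuf2, Hmmr and Smc2 were not above background on any array, and Ttk was detected on 1 WT array. That left 34 genes, 32 of them detected on all 16 arrays. Cks1b was detected on 7 KO and 8 WT arrays, and Ect2 on 3 KO and 5 WT arrays.

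Hnf4a itself, the deleted gene, lay between 10.15 and 10.69 on the KO arrays, against 11.89 to 12.49 on the WT arrays (log2 intensity), so every array matched its label. Its KO mean was 29.7% of the WT mean. The share of probes detected on an array ran from 46.9% to 53.1%. All 10 pan-epithelial marker genes that had a probe were detected, whereas the probes of the enterocyte genes Fabp1 and Fabp2 did not pass the detection filter. One array stood apart for the mitosis genes. KO replicate 6 had a mean of 9.40 over the 34 genes, against 8.62 to 9.06 on the other 7 KO arrays and 9.36 to 9.53 on the WT arrays. Its Hnf4a value of 10.48 was that of a knockout.

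The mitosis genes were lower in Hnf4aKO intestine. Of the 34 tested, 22 were lower at an adjusted p under 0.05 (limma, Benjamini-Hochberg over 10145 genes), none was higher, and 12 did not pass the test. Of all genes tested, 17.2% were lower and 13.6% were higher, so the 64.7% of mitosis genes that were lower exceeded the background share. At an unadjusted p under 0.05 in limma, 26 were lower and 0 higher, a count for which no share of all genes is given here. All 34 differences were negative, compared with 53.2% of all genes. The median log2 difference, KO minus WT, was -0.46 for the mitosis genes and -0.02 for all genes, and the mitosis genes ran from -1.24 for Cdca3 to -0.11 for Cdc25b. The differences by role are drawn in the plot of log2 differences with their standard errors (SE).

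**Figure D1:**
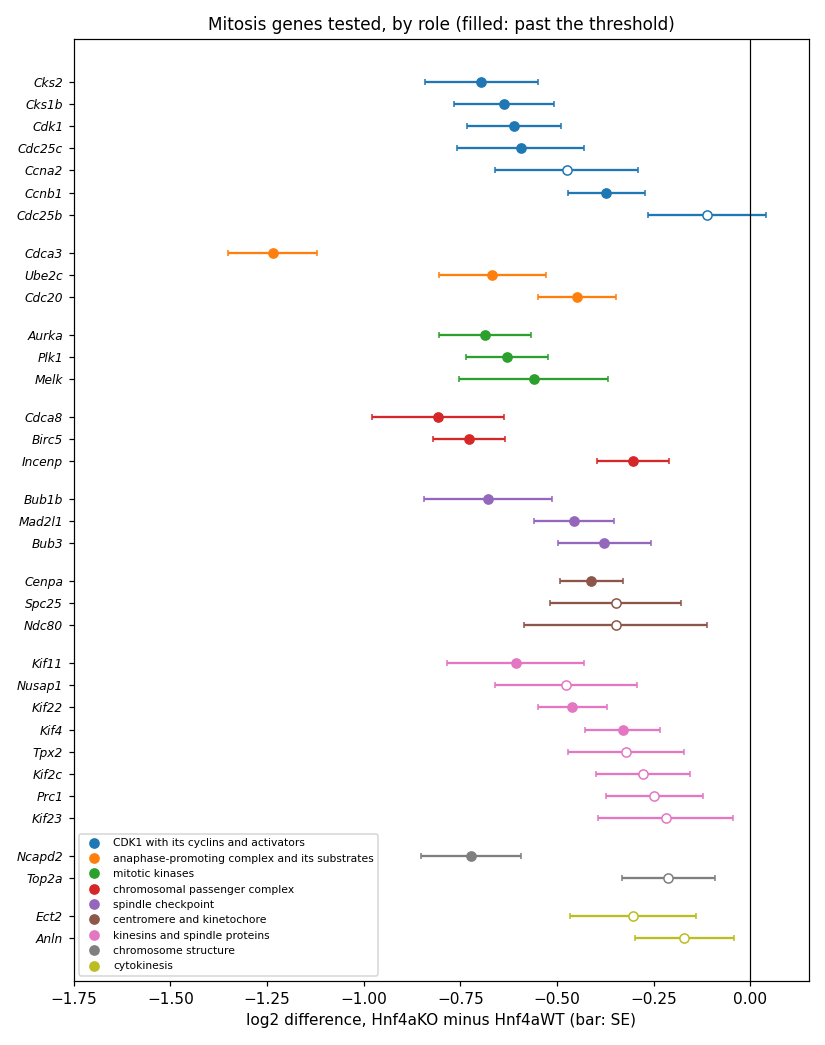
Log2 difference, Hnf4aKO minus Hnf4aWT, of the 34 mitosis genes tested (points) with its SE (bars), ordered and coloured by role and filled where the gene passed the test. All 34 points lie left of 0, 22 are filled, and no gene of cytokinesis is filled.

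Cdk1, listed on the array under its older name Cdc2a, is the kinase that drives mitotic entry. Its log2 intensity ranged from 9.27 to 10.32 with a median of 9.51 on KO arrays, and from 10.11 to 10.40 with a median of 10.25 on WT arrays. Here 7 of 8 KO arrays lay below every WT array, and replicate 6 lay among them. The difference was -0.61 (SE 0.12, adjusted p = 0.0012), a level 0.654 times that of WT. Cks2, which with Cks1b forms a pair of small proteins that bind the kinase, had a lowest, median and highest value of 7.23, 7.92 and 8.53 on KO arrays and of 8.25, 8.63 and 8.89 on WT arrays. Again 7 of 8 KO arrays were below all WT arrays. It had the largest difference of the 7 genes tested in this role, -0.70 (SE 0.15, adjusted p = 0.00177).

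Cks1b fell by 0.64, and the phosphatase gene Cdc25c, whose product activates Cdk1, fell by 0.59. Cyclin B1 (Ccnb1), the partner of Cdk1, fell less, by 0.37 (adjusted p = 0.00929), with 7 of 8 KO arrays below every WT array. Cyclin A2 (Ccna2), which acts from S phase on, differed by -0.48 with a larger spread, SD 0.39 in KO and 0.40 in WT, and did not pass the test (adjusted p = 0.0611). The other phosphatase gene, Cdc25b, differed by -0.11 (adjusted p = 0.616).

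All 3 genes tested around the anaphase-promoting complex fell. Cdca3, whose product is destroyed by that complex and helps to trigger mitotic entry, changed most of all mitosis genes tested. It lay between 10.20 and 10.87 with a median of 10.57 on KO arrays, and between 11.50 and 11.99 with a median of 11.84 on WT arrays. The groups did not overlap. The difference was -1.24 (SE 0.12, adjusted p = 1.13e-06), or 0.425 times the WT level. Ube2c, the ubiquitin-conjugating enzyme of the complex, fell by 0.67, and its activator Cdc20 by 0.45.

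The mitotic kinases tested, Aurka, Plk1 and Melk, were all lower. Aurka, which acts at the spindle poles, had a lowest, median and highest value of 9.46, 9.86 and 10.36 on KO arrays and of 10.33, 10.54 and 10.75 on WT arrays. Only the highest KO array, replicate 6, lay above the lowest WT array. The difference was -0.69 (SE 0.12, adjusted p = 0.00044). Plk1, a kinase of mitotic entry and chromosome segregation, lay between 10.34 and 11.05 on KO arrays and between 11.18 and 11.60 on WT arrays, without overlap, and differed by -0.63 (adjusted p = 0.000353). Melk, a kinase found in dividing cells, differed by -0.56 (SE 0.19, adjusted p = 0.0362), and this call was lost in 11 of the 28 alternative analyses that kept both slides and added no marker covariate.

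The chromosomal passenger complex corrects faulty attachments and guides cytokinesis, and its 3 tested subunits fell. Cdca8 (borealin) had a lowest, median and highest value of 8.08, 8.94 and 9.72 on KO arrays and of 9.43, 9.71 and 9.91 on WT arrays. All KO arrays other than replicate 6 were below every WT array, and the KO spread was the wider one, SD 0.48 in KO and 0.18 in WT. The difference was -0.81 (SE 0.17, adjusted p = 0.00193). Birc5 (survivin) lay between 10.44 and 10.92 on KO arrays and between 11.21 and 11.67 on WT arrays, again without overlap. It differed by -0.73 (SE 0.09, adjusted p = 3.08e-05). The scaffold Incenp fell by 0.30 (adjusted p = 0.021).

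The spindle checkpoint was represented by Bub1b, Bub3 and Mad2l1, and all 3 fell. Bub1b (BubR1) ranged from 7.29 to 8.55 with a median of 7.91 on KO arrays, and from 7.96 to 8.91 with a median of 8.67 on WT arrays. The groups overlapped, with 1 low WT array (replicate 8) and 1 high KO array (replicate 2), and 4 of 8 KO arrays were below all WT arrays. The difference was -0.68 (SE 0.17, adjusted p = 0.00513). Mad2l1 (Mad2), the inhibitor that the checkpoint releases, fell by 0.46 (adjusted p = 0.00301), and Bub3, the partner of the Bub1 and BubR1 kinases, fell by 0.38 (adjusted p = 0.0244), a call that was lost when arrays were scaled by their medians.

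At the centromere and kinetochore 1 of 3 genes tested passed. Cenpa, the histone H3 variant that marks centromeres, had a lowest, median and highest value of 12.23, 12.59 and 12.71 on KO arrays and of 12.84, 12.92 and 13.01 on WT arrays. The groups did not overlap. The difference was -0.41 (SE 0.08, adjusted p = 0.00114). Ndc80 and Spc25, subunits of the NDC80 complex that holds microtubules, had nearly the same difference, -0.35 each, with SEs of 0.24 and 0.17, and did not pass (adjusted p = 0.283 and 0.131).

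Of 8 kinesins and spindle proteins tested, 3 fell. Kif11 (Eg5), the motor that pushes spindle poles apart, ranged from 6.56 to 7.59 with a median of 7.35 on KO arrays, and from 7.24 to 8.23 with a median of 7.92 on WT arrays. The groups overlapped, with 3 of 8 KO arrays below every WT array. The difference was -0.61 (SE 0.18, adjusted p = 0.0152). Kif22, a motor that binds chromosome arms, lay between 10.06 and 10.61 on KO arrays and between 10.73 and 10.96 on WT arrays, without overlap, and differed by -0.46 (adjusted p = 0.00104). Kif4, another chromosome-bound motor, fell by 0.33 (adjusted p = 0.0165).

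The other 5 genes of this role did not pass the test. Nusap1, which bundles spindle microtubules, differed by -0.48 (adjusted p = 0.0586). Tpx2, the activator of Aurora A on the spindle, differed by -0.32 (adjusted p = 0.112). Kif2c, which takes microtubule ends apart, differed by -0.28 (adjusted p = 0.0895). For this gene 7 of 8 KO arrays lay below every WT array, and KO replicate 6 had the highest value of all, 9.75. Prc1, the crosslinker of the spindle midzone, differed by -0.25 (adjusted p = 0.144), and Kif23, the motor of the midzone, by -0.22 (adjusted p = 0.364).

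Chromosome structure was read by 2 genes that differed in outcome. Ncapd2, a subunit of condensin I, ranged from 8.45 to 9.46 with a median of 8.94 on KO arrays, and from 9.32 to 9.98 with a median of 9.61 on WT arrays. Here 7 of 8 KO arrays were below all WT arrays, and replicate 3 was the exception. The difference was -0.72 (SE 0.13, adjusted p = 0.000521). Top2a, the topoisomerase that untangles sister chromatids, had a lowest, median and highest value of 10.10, 10.64 and 11.09 on KO arrays and of 10.60, 10.88 and 11.02 on WT arrays. Its groups overlapped widely, with the highest value of all on KO replicate 6. The difference was -0.21 (SE 0.12, adjusted p = 0.194).

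Neither gene of cytokinesis passed. Ect2, the exchange factor that activates RhoA at the division plane, ranged from 5.26 to 6.24 with a median of 5.73 on KO arrays, and from 5.56 to 6.37 with a median of 6.08 on WT arrays. These values lie near background and overlap. The difference was -0.30 (SE 0.16, adjusted p = 0.173). Anln (anillin), a scaffold of the contractile ring, differed by -0.17 (adjusted p = 0.333).

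**Figure D2:**
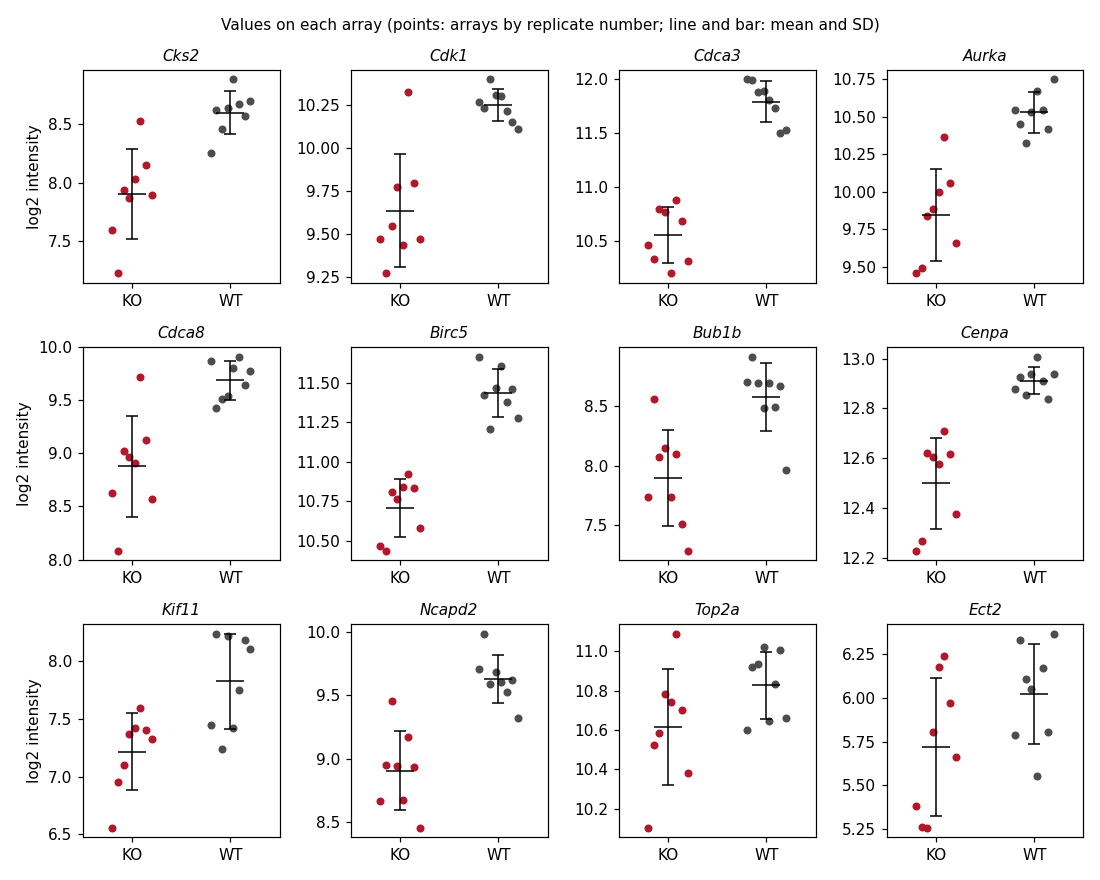
Log2 intensity of 12 mitosis genes on each array, Hnf4aKO (red) left of Hnf4aWT (grey), with points in order of replicate number and a line and bar for the mean and SD (n = 8 each). Cdca3, Birc5 and Cenpa show no overlap, Cdk1, Aurka and Cdca8 overlap only through KO replicate 6, and Top2a and Ect2 overlap widely.

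Complete separation, with every KO array below every WT array, held for 5 of the 34 genes: Cdca3, Plk1, Birc5, Cenpa and Kif22. This was so for 4.36% of all genes tested. Allowing 1 exception, with at least 7 of 8 KO arrays below every WT array, the count was 15 of 34, against 8.01% of all genes. That looser limit was chosen after the values were seen.

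Several genes were read by more than 1 probe. For 9 of them, 14 further probes passed the detection filter, and 12 of these, in 8 genes, were detected on more than 4 arrays of each group. All 12 had a negative difference, and 10 were lower at an adjusted p under 0.05 in a fit over all 13460 probes. Cdca3 had a second probe at -1.37, and the other probes of Birc5 gave -0.86 and -0.82. The other probes of Cdc20 gave -0.43, -0.47 and -0.93, and those of Kif4 -0.61 and -0.89. The 2 probes that did not pass belonged to Ncapd2 (-0.55, adjusted p = 0.0784) and Spc25 (-0.49, adjusted p = 0.0605). The other 2 probes were those of Melk, detected on 4 and 1 of 8 KO arrays and on all 8 WT arrays. They passed the filter through the WT arrays and are given as bounds only, with KO values raised to the lowest detected signal of their array: WT was at least 1.88-fold and at least 1.51-fold higher.

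**Figure D3:**
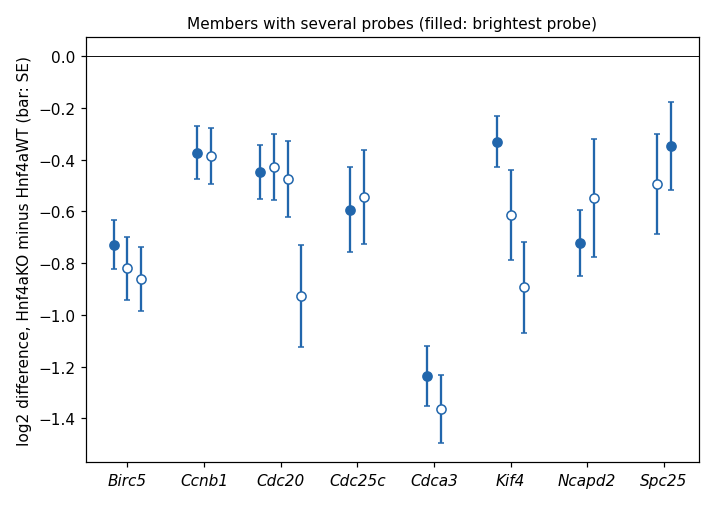
Log2 difference, Hnf4aKO minus Hnf4aWT, with its SE, for each probe of the 8 mitosis genes that had several probes detected on more than 4 arrays of each group, the brightest filled. All points lie below 0.

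The KO animals also differed more among themselves. The SD was larger in KO than in WT for 25 of 34 mitosis genes (73.5%, against 54.9% of all genes tested), and the median SD was 0.31 in KO and 0.19 in WT, compared with 0.28 in KO and 0.27 in WT over all genes. Averaged over the 34 genes, the level per array was 8.95 ± 0.24 in KO and 9.44 ± 0.07 in WT (SD, n = 8 each). The ends were marked by KO replicates 1 and 6. KO replicate 1 was the lowest KO array for 19 of the 34 genes and lay below every WT array for 33 of them. KO replicate 6 was the highest KO array for 28 genes, lay below the WT mean for 18 and below every WT array for 7. Without KO replicate 6, 27 genes were lower with a median of -0.50, the 5 added being Ccna2, Spc25, Kif2c, Nusap1 and Prc1, and without KO replicate 1, 21 were lower with a median of -0.42.

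The arrays lay on 2 slides with 4 KO and 4 WT arrays each. On slide 1 alone 8 mitosis genes were lower (background 3.93%) with a median of -0.55, and on slide 2 alone 7 were lower (background 7.19%) with a median of -0.36. Cdca3 differed by -1.35 on slide 1 and by -1.12 on slide 2, and Birc5 by -0.82 and -0.64, all past the threshold. Cdk1 differed by -0.78 on slide 1 and by -0.44 on slide 2, where it did not pass (adjusted p = 0.158).

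**Figure D4:**
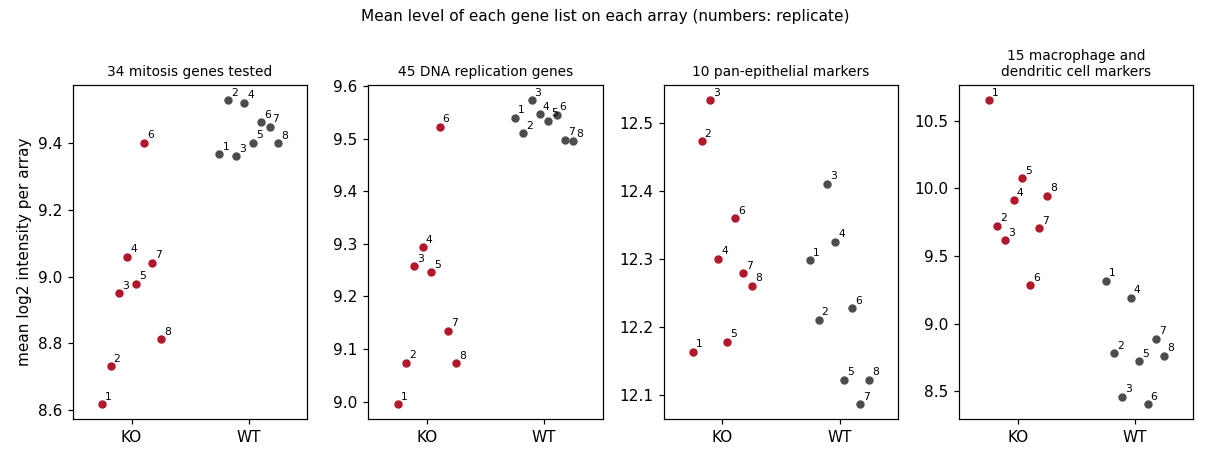
Mean log2 intensity per array of 4 gene lists, Hnf4aKO (red) left of Hnf4aWT (grey), with the replicate number beside each point. On KO replicate 6 the mitosis and DNA replication genes reach the WT values and the macrophage markers are at their lowest KO level. On KO replicate 1 the mitosis genes are lowest and the macrophage markers highest.

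Most markers tested of macrophages and dendritic cells, of endothelium and of fibroblasts were higher in KO tissue, against 13.6% of all genes. In the other marker lists few or none passed. Of 15 macrophage and dendritic cell markers, all 15 were tested and 13 were higher in KO tissue, with Mrc1 (1.25), Lyz2 (1.16) and Cd68 (1.06, log2 difference) among the largest. Fcer1g stood apart. It was detected on 8 KO arrays and 4 of 8 WT arrays, so it passed the detection filter through the KO arrays. It averaged 12.23 ± 0.26 in KO and 7.79 ± 2.78 in WT (SD, n = 8 each). Fcer1g is given as a bound only, at least 17.0-fold higher in KO, formed like that of the Melk probes. It is counted among the 13, and without it 12 of 14 were higher. The mean of the 15 markers per array ran from 9.28 to 10.65 in KO and from 8.41 to 9.32 in WT, with KO replicate 6 lowest among KO. Without Fcer1g the mean ran from 9.09 to 10.51 in KO and from 8.61 to 9.21 in WT. Of 12 endothelial markers 8 were higher, such as Pecam1 (1.07) and Eng (0.93), with a mean of 8.54 to 9.30 in KO and 7.98 to 8.54 in WT. The 8 include Cdh5, which passed the detection filter through the KO arrays (detected on 7 KO and 2 WT arrays). Of 9 fibroblast markers tested 6 were higher, such as Lum (0.86) and Thy1 (0.81), with a mean of 9.43 to 10.90 in KO and 9.30 to 10.05 in WT. In both lists, as for the macrophage markers, KO replicate 6 was the lowest KO array and KO replicate 1 the highest. None of the 8 smooth muscle markers tested passed, and their mean on KO replicate 6 was 9.45, against 11.46 to 12.01 on the other KO arrays. Of 10 pan-epithelial markers none was lower and 2 were higher (Cldn4, 0.92, and Krt20, 0.35), and the mean was 12.16 to 12.53 in KO and 12.09 to 12.41 in WT. Of the T and NK cell markers 1 of 8 tested (Cd3e, -0.58) was lower, of the B and plasma cell markers 1 of 4 (Sdc1, 0.51) was higher, and none of the 8 enterocyte markers passed. Beside the 17.2% lower and 13.6% higher of all genes, the counts of these lists and of the pan-epithelial one are too small to read as shifts.

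With the pan-epithelial mean of each array as a covariate, 21 mitosis genes were lower (background 17.1%) with a median of -0.47. With the macrophage mean as a covariate, 2 were lower, Cdca3 (-1.08) and Birc5 (-0.68), against a background of 3.24%, and the median was -0.22. Leaving Fcer1g out of that mean, an alternative chosen after the data were seen, 2 were lower (background 3.55%), again Cdca3 (-1.01) and Birc5 (-0.62), and the median was -0.23. The macrophage mean itself goes with genotype, and the part of the other cell types in the mitosis result was not tested.

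Among 10 markers of crypt stem cells tested, 2 were lower: Olfm4, a marker of crypt base stem cells, by far the most, at 8.58 ± 0.74 in KO and 10.90 ± 0.32 in WT (SD, n = 8 each), and Axin2, a target of Wnt signalling (-0.41). The median of these markers was -0.01, and Lgr5 did not pass. With 17.2% of all genes lower, 2 of 10 is too small a count to read as a shift of this list.

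Other genes of cell division were read from lists of their own. Of 45 DNA replication genes tested, 27 (60.0%) were lower, against 17.2% of all genes, and none was higher. The median was -0.36. At an unadjusted p under 0.05 in limma, 30 were lower and 0 higher, again without a share of all genes. The ribonucleotide reductase gene Rrm2 fell by 0.83, the helicase subunit Mcm7 by 0.67, the dUTPase gene Dut by 0.61 and the polymerase delta subunit Pold2 by 0.61. The mean of this list per array was 9.20 ± 0.17 in KO and 9.53 ± 0.03 in WT (SD, n = 8 each), with KO replicate 6 again highest among the KO arrays.

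Of 74 further mitosis genes tested, 22 (29.7%, against 17.2% of all genes) were lower and 1 was higher, with a median of -0.24. Shcbp1, a protein of the midbody, fell by 1.07, the centromere protein gene Cenpp by 0.85 and Stmn1, a microtubule destabiliser, by 0.80. Dlgap5, a spindle protein, went the other way, at 7.04 ± 0.51 in KO and 5.95 ± 0.33 in WT (SD, n = 8 each). It was detected on 8 KO and 4 WT arrays, so it passed the detection filter through the KO arrays. This gene is the 1 counted as higher and is given as a bound only, at least 1.94-fold higher in KO. For the bound, WT values were raised to the lowest detected signal of their array where they were below it.

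Of 26 genes of the G1 phase and of CDK inhibitors tested, 2 were lower (7.69%) and 3 higher (11.5%), shares no larger than the 17.2% and 13.6% of all genes, and the median was -0.13. The activating factor E2f2 fell by 0.87 and E2f4, a subunit of repressor complexes, by 0.40. The antiproliferative gene Btg1 was higher by 0.42 and Cdkn1a, which encodes the CDK inhibitor p21, by 0.27.

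**Figure D5:**
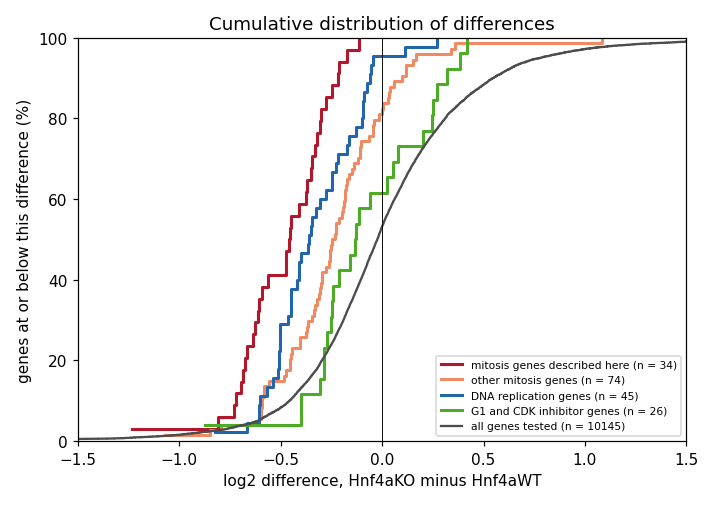
Cumulative share of genes (percent) at or below each log2 difference, Hnf4aKO minus Hnf4aWT, for 34 mitosis genes described here, 74 other mitosis genes, 45 DNA replication genes, 26 genes of G1 and of CDK inhibitors, and all 10145 genes tested. The curve of the 34 genes lies furthest left over most of the range and reaches 100% below 0.

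Many mitotic promoters carry a CHR element, which the DREAM and MuvB complexes bind, together with CCAAT boxes bound by NF-Y. RefSeq windows of 300 bases (250 before to 50 after the gene start, GRCm38.p6) were at hand for 43 of the 50 genes. They were searched on both strands for TTTGAA or TTCGAA as CHR and for CCAAT, with overlaps between motifs allowed. A CHR motif stood in 34 of 43 windows (79.1%) and in 13.9% of the windows of 7741 genes tested, and CCAAT in 34 (79.1%) and in 38.7%. Both were present in 31 (72.1%), against 5.83% of genes tested and 7.57% of the 27025 genes of the table. Within the mitosis genes, CHR was found in 15 of the 20 lower genes with a window and in 9 of the 10 that did not pass, and CCAAT in 17 of 20 and in 6 of 10. A match is a description of the letters only, and a window without a match does not describe the sequence outside it.

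The windows below are those of the gene that changed most, the second largest change and the central kinase. A motif-rich window whose gene did not pass and a window with neither motif whose gene fell follow. Capitals mark CHR and CCAAT matches on either strand, and positions count from the gene start as 1. The Cdca3 window lies on the plus strand at chr6:124829926-124830225, with 3 CCAAT and a CHR at position 31. That of Cdca8 lies on the minus strand at chr4:124936868-124937167, with 4 CCAAT and a CHR at position 14 that shares bases with one of them. The Cdk1 window lies on the minus strand at chr10:69352863-69353162, with CHR at -71 and -15. Top2a lies on the minus strand at chr11:99024140-99024439, with 4 CHR and 6 CCAAT, and Birc5 on the plus strand at chr11:117848987-117849286, with 0 of each.
Cdca3: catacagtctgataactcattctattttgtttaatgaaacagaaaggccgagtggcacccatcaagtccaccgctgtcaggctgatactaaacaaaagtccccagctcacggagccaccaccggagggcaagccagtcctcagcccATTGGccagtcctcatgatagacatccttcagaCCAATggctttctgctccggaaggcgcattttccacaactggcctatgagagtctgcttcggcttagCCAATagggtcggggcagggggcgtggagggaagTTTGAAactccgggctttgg
Cdca8: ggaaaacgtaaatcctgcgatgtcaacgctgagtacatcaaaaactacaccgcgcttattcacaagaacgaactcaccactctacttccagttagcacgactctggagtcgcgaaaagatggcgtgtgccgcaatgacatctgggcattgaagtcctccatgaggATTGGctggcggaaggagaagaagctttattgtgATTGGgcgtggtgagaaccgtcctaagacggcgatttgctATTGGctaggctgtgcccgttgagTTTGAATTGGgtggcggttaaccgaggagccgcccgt
Cdk1: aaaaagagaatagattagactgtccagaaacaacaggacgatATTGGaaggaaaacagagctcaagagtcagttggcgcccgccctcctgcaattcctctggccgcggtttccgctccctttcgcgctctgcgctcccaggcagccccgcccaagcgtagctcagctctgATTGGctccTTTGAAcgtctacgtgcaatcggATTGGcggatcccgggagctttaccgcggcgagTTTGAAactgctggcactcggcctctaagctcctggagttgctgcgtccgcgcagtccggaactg
Top2a: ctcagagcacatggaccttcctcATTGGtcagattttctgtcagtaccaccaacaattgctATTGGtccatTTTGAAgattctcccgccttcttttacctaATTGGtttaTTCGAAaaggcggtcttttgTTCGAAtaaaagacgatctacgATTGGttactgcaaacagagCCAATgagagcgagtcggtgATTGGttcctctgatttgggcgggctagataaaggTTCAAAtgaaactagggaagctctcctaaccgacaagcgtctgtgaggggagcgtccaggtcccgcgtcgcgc
Birc5: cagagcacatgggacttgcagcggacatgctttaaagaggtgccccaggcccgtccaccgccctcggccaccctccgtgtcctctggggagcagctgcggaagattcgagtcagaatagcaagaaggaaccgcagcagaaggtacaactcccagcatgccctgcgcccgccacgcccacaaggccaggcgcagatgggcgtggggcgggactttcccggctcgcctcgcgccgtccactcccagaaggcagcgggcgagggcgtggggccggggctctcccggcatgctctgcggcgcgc
Beside these letters stand differences of -1.24 for Cdca3, -0.81 for Cdca8, -0.61 for Cdk1, -0.21 for Top2a and -0.73 for Birc5.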

How the data were processed

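Total RNA of intestinal tissue from 16 mice was amplified to biotinylated cRNA and hybridised to Illumina arrays, per the labels' protocols. The deposited intensity of each of 25697 probes is not normalized, per the file headers, and the deposited detection p-value moves in steps that fit 798 negative control beads. The deposited series table, also of intensity values, came without a named method and served as an alternative. Background was removed from the intensities by normexp (limma 3.58.1, R 4.3.3, offset 16), with the negative control parameters taken from the detection p-values, and values were quantile normalized between arrays and put on the log2 scale. The offset of 16 shrinks differences of dim probes. Without background correction differences were smaller still, with a median of -0.34 for the mitosis genes against -0.46.

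Probes with a detection p under 0.05 on at least 6 of 16 arrays were kept (13460), and the brightest probe of each gene was tested (10145 genes). A symbol current in RefSeq GRCm38.p6 was found for 20736 probes, 3872 were updated through a synonym and 1089 kept the array's name. KO was compared with WT by limma (lmFit, eBayes) with Benjamini-Hochberg adjustment over all genes and a threshold of 0.05. The procedure was also run on simulated data, with independent values and the same SD in both groups. Most mitosis genes had a larger SD in KO, so that run does not measure the error rate of their calls. Replicates were taken as separate animals, since the design text speaks of mice, and their number limits the precision. Correlations between arrays lay between 0.906 and 0.988, and none was counted as a duplicate.

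The members and gene lists were chosen with earlier results of these data known. All members are named. Values per array are given for the gene of each role with the largest difference past the threshold (or the smallest p), for Cdk1 and for Top2a, and for Birc5, Plk1 and Kif22, which were added after their values were seen. Genes given with values from the other lists are among the 4 of each list with the largest changes past the threshold. Lgr5, Fabp1 and Fabp2 are named without values. The genes of complexes under Other observations can fall outside this rule, their groupings being chosen after the values were seen. Alternatives were other background, scaling, detection and probe choices, slide and replicate blocks, each slide alone, array weights, marker covariates (one of them, without Fcer1g, added after seeing the data) and leaving out each array.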

Additional observations from a re-analysis of the deposited data

Results flagged for a closer look

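In the 70 sets of 8 arrays examined (each tested mitosis gene in each group, and the means of the genes), 2 held an array whose gap to its neighbour was large for the range of its group. Chance alone gives about 1 in 20 such sets. Melk on Hnf4aKO replicate 6 stood at 7.733, with the next highest KO array at 6.816. Bub1b on Hnf4aWT replicate 8 stood at 7.96, with the next lowest WT array at 8.485.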

How the results depend on the processing

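Of the 22 lower mitosis genes, 19 kept their call in all 28 alternatives that used both slides and no marker covariate. The exceptions were Melk (lost with scaling by the 75th percentile, with no detection filter, and without KO replicate 1, 2, 3, 5 or 7 or WT replicate 1, 3, 5 or 6), Bub3 (lost with median scaling) and Ncapd2 (lost with the probe of largest variance). Of the 12 genes that did not pass, 6 passed in some of these alternatives. Ccna2 did with median scaling, slide or replicate blocks and array weights. Nusap1 did without background correction, with 75th percentile or median scaling, and with the deposited series table. It also did with detection on all 16 arrays, a replicate block and array weights. Prc1 passed with both scalings and Kif2c with array weights. Without KO replicate 4 Tpx2 passed, and without WT replicate 1 Ccna2 and Nusap1 did, as Nusap1 did without WT replicate 5. The gains without KO replicate 6 are given above. No mitosis gene was higher in any alternative, and leaving out each array in turn gave 21 to 27 lower genes, medians between -0.50 and -0.42 and 2647 to 3370 calls over all genes. Arrays with the same replicate number had deviations that correlated between -0.23 and 0.39. For 4 of 8 numbers the match was best with the own number, a hint of pairing from the data. Arrays of the same number also shared a slide, which could raise these correlations as well. Not every correlation was over 0.1 and the labels state no pairing, so the numbers were not used as pairs. With the number as a replicate block, 24 mitosis genes were lower (18.5% of all genes). Scaling by the median moved the median of all genes to -0.11, and lower genes made up 67.6% of calls there (1825 lower, 873 higher), against 55.9% in the reported analysis (1741 lower, 1375 higher). Slide 1 alone gave 8 lower mitosis genes and 763 calls in all, slide 2 alone 7 and 1333, each with 4 KO and 4 WT arrays. The macrophage covariate gave 2 lower mitosis genes, 694 calls and a median of -0.22, and without Fcer1g in it 2, 745 and -0.23. The cause was not tested. No value changed sign in the other alternatives. Under the macrophage covariate 12 genes did: Ccna2 (0.0292), Cdc25b (0.19), Melk (0.0517), Ndc80 (0.13), Spc25 (0.14), Kif23 (0.36), Kif2c (0.14), Kif4 (0.0483), Nusap1 (0.0124), Prc1 (0.0741), Top2a (0.19) and Ect2 (0.00158). Without Fcer1g in the covariate 5 did: Cdc25b (0.175), Ndc80 (0.0467), Kif23 (0.266), Kif2c (0.13) and Top2a (0.117). On slide 2 alone 4 did: Cdc25b (0.15), Kif23 (0.0502), Anln (0.0487) and Ect2 (0.0375). Signal over background limits Ect2 and the 8 genes whose probes did not pass the detection filter.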

Other observations

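Counts within complexes of the wider mitosis lists are given here beside the 17.2% of all genes that were lower. The groupings were chosen after the values were seen, carry no test, and are too small to show that complexes differ. Of 5 condensin subunits tested 4 were lower, namely Ncapd2, Ncaph (-0.48), Ncapd3 (-0.38) and Ncaph2 (-0.47), while Ncapg2, detected on 7 KO and 6 WT arrays, gave 0.03. Of 6 cohesin subunits, the ring that holds sister chromatids together, none passed the test and none had an unadjusted p under 0.05 in limma. Their differences ran from -0.18 for Rad21 to 0.36 for Pds5b. Of 8 core subunits of the anaphase-promoting complex 1 was lower (12.5%), Anapc7 (-0.34), and the median was -0.12. Of 9 further centromere proteins 2 were lower (22.2%), Cenpp (-0.85) and Cenpn (-0.59), and Cenpm was measured at 0.17.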
